A study of Mus musculus with 16 samples.

Results

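The SR splicing factors were followed here as 10 genes of the 56748 in the gene tables, Srsf1, Srsf2, Srsf3, Srsf4, Srsf5, Srsf6, Srsf7, Srsf9, Srsf10 and Srsf11, taken by symbol from the table of estimated read counts and the table of TPM (the share of transcripts that a gene takes in a sample, scaled for transcript length). RNA-seq was run on memory CD4+ T cells sorted from spleen as CD25 low or negative, CD62L negative and CD44 high. There were 4 HP1a KO, 4 HP1a WT, 4 HP1g KO and 4 HP1g WT samples, written in the plots as HP1α and HP1γ. HP1a and HP1g, the products of Cbx5 and Cbx3, are heterochromatin proteins that bind methylated histone H3. In the HP1a line, a floxed allele had been excised with a CMV-cre transgene, so that the deletion was inherited in all tissues and controls and mutants came from crosses of heterozygous mice. In the HP1g line, both genotypes carried the floxed allele on both chromosomes and the KO also carried Cd4-cre, so that deletion was restricted to the T cell lineage. The mice were sex-matched littermates 6 to 12 weeks old on a mixed 129/Sv and C57BL/6 background, kept in each line separately. Each genotype was therefore compared with the WT littermates of its own line, and the WT groups of both lines were set against each other.

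SR proteins carry RNA recognition motifs and a tail rich in alternating arginine and serine. They bind exonic enhancers in pre-mRNA, recruit the spliceosome to nearby splice sites, and several also accompany the spliced mRNA to the cytoplasm. Most of them limit their own amount by splicing a cassette exon with a premature stop codon, often called a poison exon, into their own transcripts, which are then removed by nonsense-mediated decay. In T cells, the alternative splicing of surface receptors such as CD45 changes during activation under the control of SR and hnRNP proteins.

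The annotated form of this control can be read in the genome. The 10 genes lie at separate places in GRCm39, among them Srsf10 at chr4:135583043-135602548, Srsf11 at chr3:157716110-157742310, Srsf1 at chr11:87938129-87944581, Srsf6 at chr2:162773299-162780234 and Srsf9 at chr5:115465189-115476335. In the GENCODE vM39 annotation of that build, between 3 (Srsf1) and 55 (Srsf5) transcripts of each gene were classed as targets of nonsense-mediated decay. For 7 genes, such a transcript held a cassette exon that is absent from the reference transcript and brings in a stop codon in frame. Only cassette exons of this kind were searched, and other ways to a premature stop were not. No exon met this rule in Srsf1, Srsf2 or Srsf10, where 3, 5 and 30 transcripts were classed as targets of nonsense-mediated decay. The first bases of the exon found in most such transcripts are given for 4 genes whose levels or lengths are described in later paragraphs, in lower case up to the premature stop codon in capitals.
Srsf3, exon at chr17:29258428-29258883, plus strand, 456 bases, in 12 transcripts: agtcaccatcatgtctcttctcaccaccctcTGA
Srsf7, exon at chr17:80512404-80512510, minus strand, in 9 transcripts: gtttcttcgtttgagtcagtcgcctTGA
Srsf9, exon at chr5:115466406-115466763, plus strand, 358 bases, in 14 transcripts: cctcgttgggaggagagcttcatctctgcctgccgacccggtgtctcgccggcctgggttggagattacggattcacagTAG
Srsf11, exon at chr3:157730335-157730398, minus strand, 64 bases, in 4 transcripts: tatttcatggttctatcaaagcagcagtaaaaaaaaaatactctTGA
The stop follows the exon start by fewer bases in Srsf3 and Srsf7 than in Srsf9 and Srsf11, and the exons of Srsf11, Srsf9 and Srsf3 are 64, 358 and 456 bases long. The tables analysed here hold 1 value per gene and sample, so that inclusion of these exons was not measured. What the tables do retain is the length implied by a gene's count and its TPM, which is described after the levels.

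Total estimated counts ranged from 26694045 to 40199637 per sample and did not differ between the groups compared (exact two-sided permutation tests of 4 against 4, p = 0.371, 0.343 and 0.429, against a smallest possible p of 0.0286). The SR genes took 0.247 to 0.286% of these counts. The targeted genes were lower in each KO sample than in every WT littermate. Cbx5 was at 3.86 to 7.25 TPM in HP1a KO and 8.42 to 13.4 TPM in HP1a WT, a log2 fold change of -0.58 in counts (SE 0.145, unadjusted p = 0.00257, adjusted p = 0.946, edgeR) that did not pass the threshold. Cbx3 was at 43.2 to 50.6 TPM in HP1g KO and 74.8 to 84.8 TPM in HP1g WT, and fell by 0.82 (SE 0.079, adjusted p = 0.00150, edgeR). Markers of CD4+ T cells were abundant in all 16 samples (Cd4 556 to 836 TPM, Cd44 132 to 198 TPM). Of the CD8 T cell markers, Cd8a was at 0.348 to 4.56 TPM and Cd8b1 at 4.32 to 13.5 TPM. Foxp3, which marks regulatory T cells, was at 34.2 TPM or more in all samples. The summed level of 5 erythroid markers ranged from 275 to 4199 TPM in HP1g KO, from 142 to 1818 TPM in HP1g WT and from 56.1 to 1704 TPM in the HP1a line, and that of 9 B cell markers from 559 to 1272, 273 to 834 and 213 to 1133 TPM.

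All 10 genes were expressed in every sample, with levels that spanned a range from Srsf5, a gene also induced by growth signals, to Srsf9. Srsf5 averaged 1093 TPM over the 16 samples and made up 36.4% of the summed TPM of the SR genes. It was followed by Srsf3, which also links splicing to mRNA export, at 413 TPM, by Srsf2, the SR protein confined to the nucleus, at 340 TPM, by Srsf11 at 311 TPM and by Srsf7 at 284 TPM. Srsf6 stood at 218 TPM, Srsf1, the founding member of the family, at 118 TPM, Srsf4 at 98.2 TPM, Srsf10, which can act as a splicing repressor when dephosphorylated, at 86.9 TPM, and Srsf9 at 44.3 TPM. Over the 16 samples, the ranges of neighbours in this order were apart only between Srsf5 and Srsf3, between Srsf6 and Srsf1, and between Srsf10 and Srsf9. By CPM per kilobase of the longest annotated transcript, 7 of the 10 genes changed rank, and Srsf5, Srsf11 and Srsf9 kept theirs. In the runs from Srsf3 to Srsf6 and from Srsf1 to Srsf10 the ranges of neighbours overlapped.

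**Figure D1:**
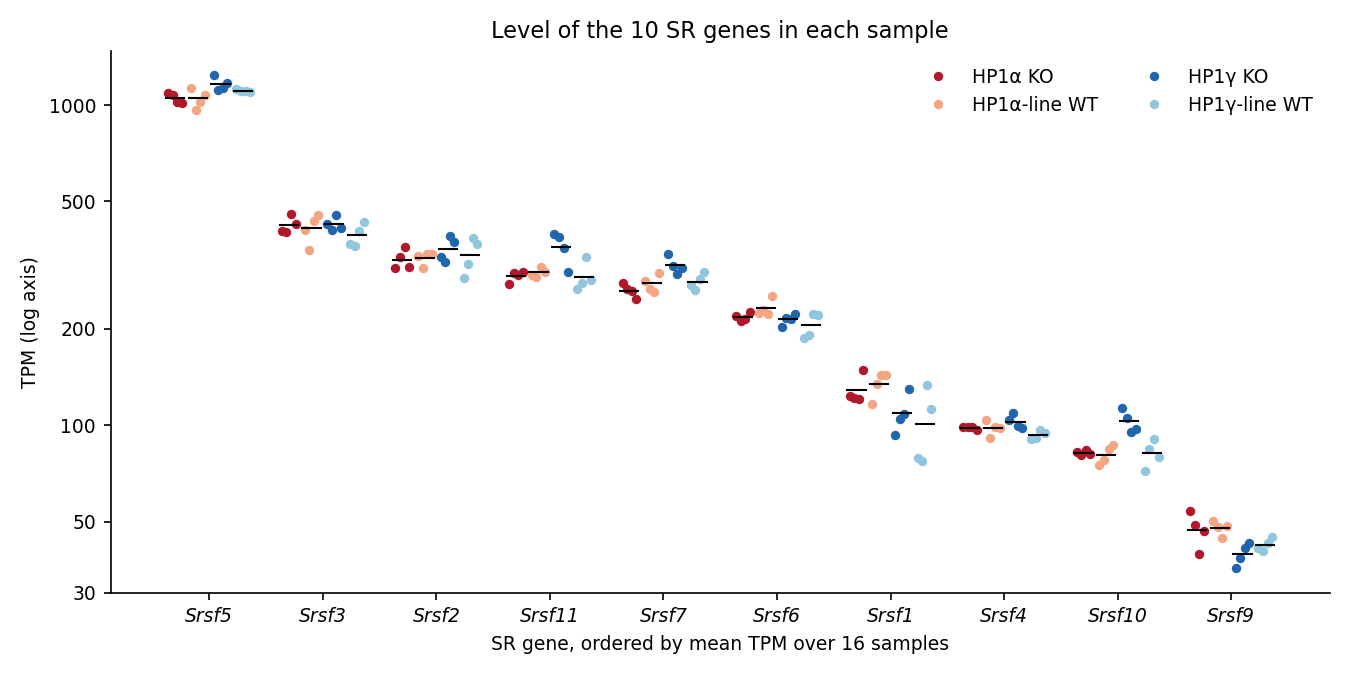
TPM (log axis) of each SR gene in each of the 16 samples, coloured by group, with black lines at the group means. Srsf5 lay above 965 TPM in every sample and Srsf9 at or below 53.8 TPM, and the spread within a group was widest for Srsf1 in the WT samples of the HP1γ line.

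The genes also differed in how much they varied from sample to sample. Over the 16 samples, the coefficient of variation of TPM was 4.99% for Srsf4 and 6.01% for Srsf5, but 18.3% for Srsf1, 12.8% for Srsf10, 12.3% for Srsf11 and 10.9% for Srsf9. In bulk RNA, a lower level in each cell and fewer cells expressing the gene cannot be told apart. Reads of 3 genes can also be shared with near-identical copies on the same strand: Srsf3 with Srsf3-ps and Gm9761, Srsf5 with Gm12966, and Srsf10 with Gm5446. These were also the 3 genes whose estimated counts were not whole numbers in most samples, and their levels are less certain for that reason.

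The comparison of HP1a KO with WT littermates asked whether loss of HP1a changes the SR genes. None of the 10 passed an adjusted p of 0.05 in the quasi-likelihood test of edgeR with Benjamini-Hochberg adjustment over 14881 genes, where 0.0% of all genes did, and none did by DESeq2 or by limma on TPM. Of the 10 log2 fold changes, 9 were negative, with a median of -0.09 against 0.0026 for all genes tested. At an unadjusted p under 0.05 there were 4 SR genes, all lower in the KO (Srsf10, Srsf1, Srsf6 and Srsf11), while 4.27% of all genes reached that level and 2.59% did so with a lower value in the KO.

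As CPM, the share of a library's counts after TMM scaling and not scaled for length, Srsf10 stood at 65.5, 63.5, 68.8 and 65.5 in HP1a KO and at 71.4, 80.2, 75.2 and 73.9 in HP1a WT. The groups did not overlap, the KO being the lower. The log2 fold change was -0.19 (SE 0.056, unadjusted p = 0.00617, adjusted p = 0.946, edgeR), a value 12.5% lower in the KO, with a 95% confidence interval of -0.32 to -0.07.

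In TPM the same samples did not differ in this way. Srsf10 was at 82.1 ± 1.34 TPM in HP1a KO and 81.0 ± 5.43 TPM in HP1a WT (SD, n = 4), and its log2 fold change by limma on log2(TPM + 1) was 0.022. The direction of Srsf3 also turned, from -0.11 in counts to 0.039 in TPM, and that of Srsf5 from -0.03 to 0.0028.

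Srsf6 and Srsf11 were the other genes whose KO and WT ranges of CPM did not overlap, so that 3 of the 10 stood apart, all lower in the KO. In this comparison 2.96% of all genes stood apart in either direction. Srsf6 had 296, 286, 296 and 299.5 CPM in HP1a KO against 303, 335, 311 and 347 CPM in HP1a WT. The fold change was -0.14 (SE 0.055, adjusted p = 0.946, edgeR). For Srsf11, HP1a KO was at 239, 243, 250.3 and 238 CPM and HP1a WT at 252, 268, 265 and 258 CPM.

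Srsf11 differed by -0.10 (SE 0.046, adjusted p = 0.946, edgeR), and its highest KO sample lay just below its lowest WT sample. Srsf1 had the largest negative value, -0.25 (SE 0.077, adjusted p = 0.946, edgeR), but its ranges overlapped, at 87.4 to 97.7 CPM in the KO and 93.5 to 120 CPM in the WT samples. In TPM, no SR gene had ranges apart between HP1a KO and WT, where 2.74% of all genes did. The 6 other genes gave log2 fold changes from -0.11 (Srsf3) to 0.02 (Srsf4), with Srsf7 at -0.09, Srsf5 at -0.03, Srsf2 at -0.03 and Srsf9 at -0.02.

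The comparison of HP1g KO with WT littermates asked the same of HP1g. Again no SR gene passed an adjusted p of 0.05 in the edgeR test over 14975 genes, 0.327% of which did, and none did by DESeq2 or by limma on TPM. Of the fold changes, 9 were positive, with a median of 0.06 against 0.00050 for all genes. Srsf10 and Srsf11 reached an unadjusted p under 0.05, both higher in the KO, in a comparison where 11.9% of all genes reached it. In this line the higher values came with a wide spread among the KO samples.

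Srsf10 had 104, 92.6, 80.7 and 77.6 CPM in HP1g KO and 78.4, 76.6, 76.7 and 69.0 CPM in HP1g WT. The lowest KO sample fell within the WT range. The log2 fold change was 0.25 (SE 0.095, unadjusted p = 0.0267, adjusted p = 0.373, edgeR), a value 18.6% higher, with a 95% confidence interval of 0.03 to 0.46.

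In TPM the groups were apart for this gene. Srsf10 was at 113, 106, 95.05 and 97.4 TPM in HP1g KO and at 72.0, 84.3, 90.8 and 79.7 TPM in HP1g WT. The other SR gene with ranges apart in TPM was Srsf4, at 98.3 to 109 TPM in the KO and 90.9 to 96.9 TPM in the WT samples, in a comparison where 7.09% of all genes stood apart on that scale. On the log2(TPM + 1) scale the median of all genes was itself 0.06 higher in HP1g KO.

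Srsf11 followed Srsf10 across the samples. It had 343, 315, 301 and 260.2 CPM in HP1g KO and 275, 262, 274 and 251 CPM in HP1g WT, so that 3 KO samples lay above the WT range and the 4th inside it. Its log2 fold change was 0.21 (SE 0.084, unadjusted p = 0.0319, adjusted p = 0.385, edgeR).

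Srsf9, a family member with a short arginine-serine tail, had the opposite sign. HP1g KO was at 23.0, 24.3, 26.7 and 26.9 CPM and HP1g WT at 28.8, 27.8, 27.05 and 29.5 CPM. The KO range ended just below the WT range, which made Srsf9 the only SR gene with CPM ranges apart here, beside 7.1% of all genes. Its fold change was -0.16 (SE 0.074, adjusted p = 0.441, edgeR). The 7 other genes lay between 0.0035 (Srsf5) and 0.12 (Srsf7), with Srsf4 at 0.10, Srsf3 at 0.09, Srsf1 at 0.04, Srsf6 at 0.0099 and Srsf2 at 0.0054.

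**Figure D2:**
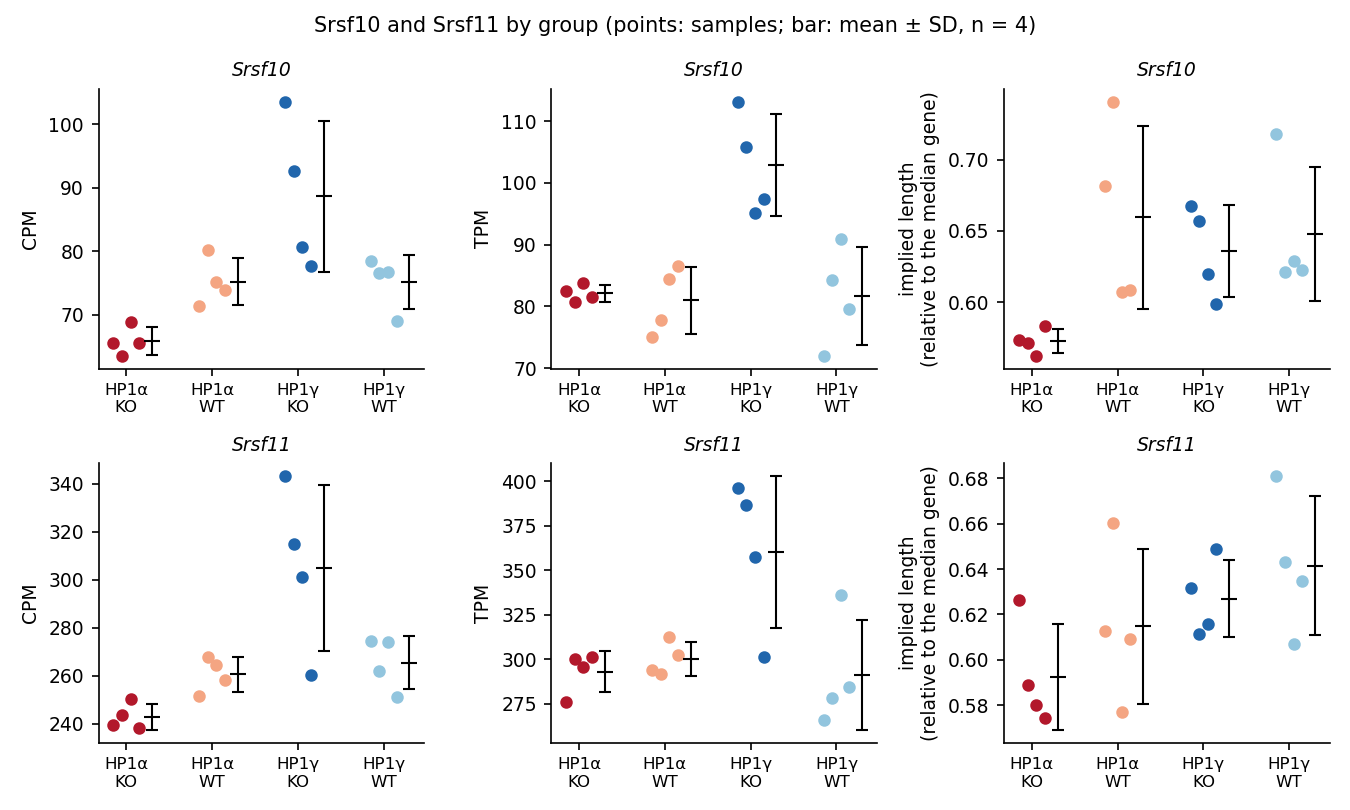
Srsf10 (top) and Srsf11 (bottom) by group in CPM, in TPM and as implied length, a ratio to the median gene of the sample; points are samples, bars mean ± SD (n = 4), and axes do not start at 0. In CPM both genes were lowest in HP1α KO and highest in HP1γ KO, and the implied length of Srsf10 was below 0.59 in every HP1α KO sample.

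Summed over the 10 genes, the level was 2932 ± 23.0 TPM in HP1a KO, 2966 ± 144 TPM in HP1a WT, 3189 ± 70.2 TPM in HP1g KO and 2937 ± 157 TPM in HP1g WT (SD, n = 4). The HP1g KO samples spanned 3123 to 3287 TPM and lay above the highest HP1g WT sample, at 3107 TPM. Of the lists described later, the summed SR kinases were also apart (1286 to 1474 TPM in HP1g KO, 1177 to 1250 TPM in HP1g WT). So were the export partners (895 to 920 and 763 to 884 TPM), while the SR-like, hnRNP and decay lists overlapped. How often sums of other gene lists stand apart was not tested. Of single genes 7.09% stood apart in TPM, 803 higher and 258 lower in HP1g KO. The median of all genes was also higher in HP1g KO on the log2(TPM + 1) scale, as given before. The erythroid and B cell markers given before had their highest group medians in HP1g KO as well, at 3143 and 637 TPM, and their part in the SR gene values was not tested.

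Whether the lines differed in the KO effect was tested as the difference of the 2 effects in 1 fit of all 16 samples. No SR gene passed an adjusted p of 0.05 by edgeR, where 0.0507% of 15776 genes did, and none by DESeq2 or limma on TPM. The differences were negative, that is lower in HP1a KO relative to its own WT than in HP1g KO relative to its own, for 9 of the 10 genes. At an unadjusted p under 0.05 there were 3 (9.58% of all genes), Srsf10 at -0.43 (SE 0.112, unadjusted p = 0.00145, adjusted p = 0.271), Srsf11 at -0.30 (SE 0.095, adjusted p = 0.384) and Srsf7 at -0.20 (SE 0.090, adjusted p = 0.498), all edgeR. DESeq2 gave Srsf10 an adjusted p of 0.0605 for this difference, the lowest of any SR gene under the alternatives run. The values for Srsf1 (-0.27), Srsf3 (-0.19) and Srsf6 (-0.14) were also negative, those of Srsf4 (-0.07), Srsf2 (-0.03) and Srsf5 (-0.02) were small, and that of Srsf9 was 0.15.

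Between the WT groups of the lines, many more genes passed the test than between KO and WT in either line. Of 14804 genes, 12.8% passed an adjusted p of 0.05 by edgeR, 674 higher and 1222 lower in the HP1a line (250 and 925 by limma on TPM). Srsf1 was the only SR gene among them, and the same was found by DESeq2 (adjusted p = 0.0109). Line, litter and processing cannot be told apart in this comparison, and it shares its samples with the KO comparisons. Of 8 memory CD4+ T cell markers, Cd44 and Icos were called lower in the HP1a line by edgeR, and none higher. DESeq2 and limma on TPM called the same 2 genes, and DESeq2 also called Ccr7, a naive T cell marker, and Cd8a. The part of cell state in the SR gene values was not tested.

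Srsf1 had 93.5, 120, 114 and 109 CPM in the WT samples of the HP1a line and 73.5, 69.2, 93.3 and 94.1 CPM in those of the HP1g line. Replicates 3 and 4 of the HP1g line were level with replicate 1 of the HP1a line, so that the ranges overlapped. The fold change was 0.40 (SE 0.117, unadjusted p = 0.00598, adjusted p = 0.0484, edgeR), a value 31.9% higher in the HP1a line, with a 95% confidence interval of 0.14 to 0.66.

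The call was lost without any 1 of 6 of the 8 samples. For Srsf1 the adjusted p was 0.0618, 0.108, 0.0842 and 0.0918 without HP1a WT replicates 1, 2, 3 and 4, and 0.135 and 0.128 without HP1g WT replicates 1 and 2. It was 0.120 by limma on log2(TPM + 1). Over the 16 alternatives run, the fold change of Srsf1 lay between 0.32 and 0.47.

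Srsf9 reached an unadjusted p under 0.05 as well, the only other SR gene to do so in a comparison where 29.9% of all genes did. It was higher in the HP1a line by 0.17 (SE 0.065, adjusted p = 0.117, edgeR). HP1a WT was at 32.5, 30.7, 31.2 and 32.7 CPM, above the HP1g WT values given before. It was the 1 SR gene with CPM ranges apart between the WT groups (19.5% of all genes), while in TPM that gene was Srsf6, at 223 to 253 TPM in the HP1a line and 188 to 223 TPM in the HP1g line (15.9% of all genes).

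Srsf6 differed by 0.13 in counts, Srsf4 by 0.10, Srsf5 by -0.09 and Srsf2 by -0.05. Srsf11 (-0.03), Srsf7 (-0.0070), Srsf3 (-0.0061) and Srsf10 (-0.0019) were close to 0, with 95% confidence intervals within -0.16 and 0.15. The median absolute fold change of the 10 genes was 0.07, against 0.20 for all genes.

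**Figure D3:**
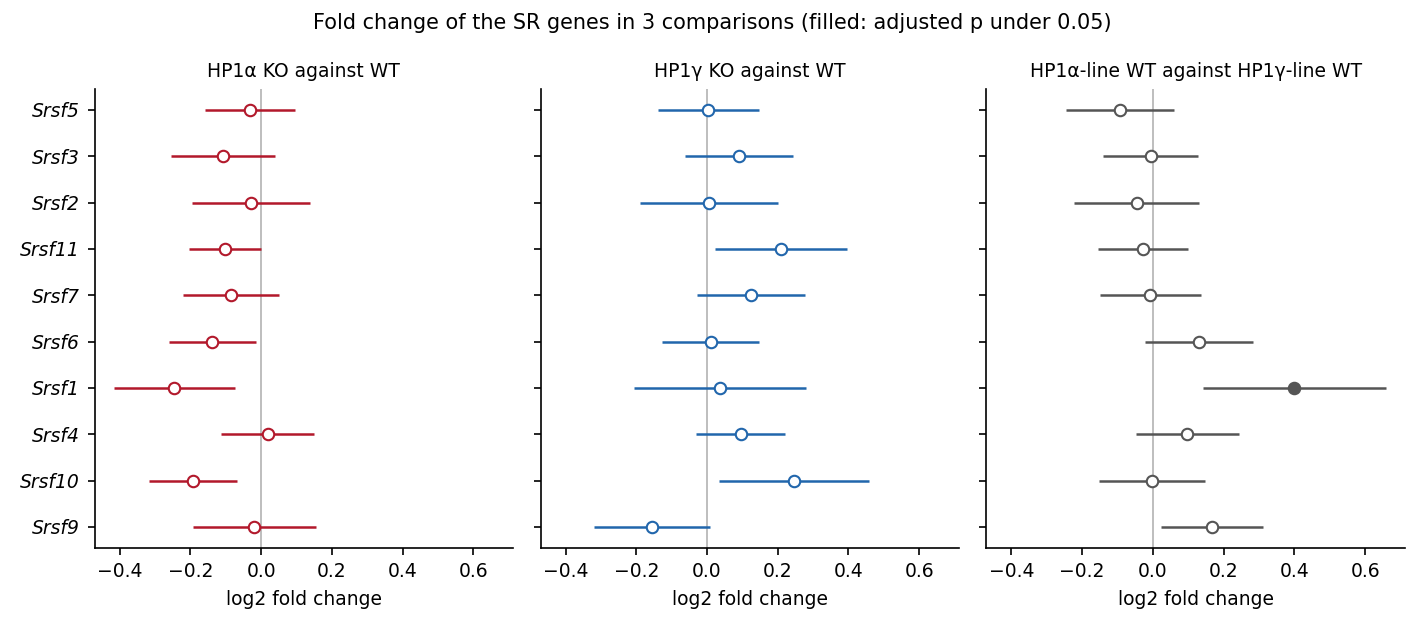
Log2 fold change of each SR gene with its 95% confidence interval (edgeR) in the KO comparison of each line and between the WT groups. The filled point, Srsf1 between the WT groups at 0.40, is the only value with an adjusted p under 0.05, and Srsf10 lies at -0.19 and 0.25 in the KO comparisons.

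**Figure D4:**
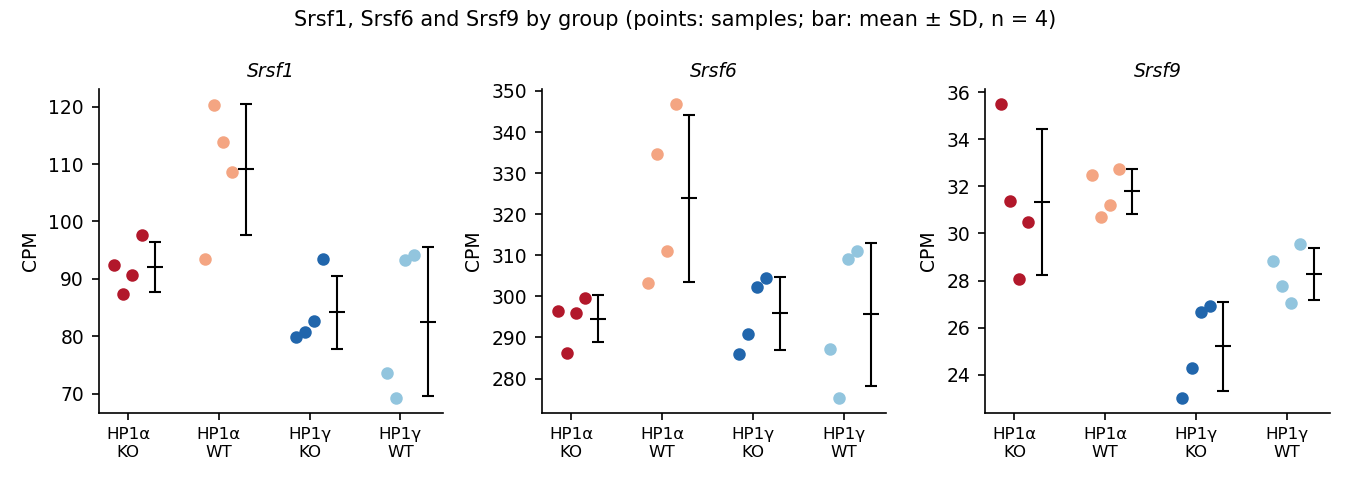
CPM of Srsf1, Srsf6 and Srsf9 by group; points are samples, bars mean ± SD (n = 4), and axes do not start at 0. The Srsf1 values of HP1γ-line WT fall into a pair at 69.2 and 73.5 CPM and a pair at 93.3 and 94.1 CPM.

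The ratio of a gene's estimated count to its TPM is proportional to the effective length of the transcripts its reads were assigned to, and thus can move when the mix of isoforms moves. Isoforms were not measured, and other sources of a change in the ratio were not tested. The ratio was centred on the median of 9679 genes in each sample, since the uncentred ratio carries the depth of the library. For 4 SR genes this implied length varied more than for most genes. The standard deviation on the log2 scale over the 16 samples was 0.135 for Srsf3, 0.118 for Srsf1 and 0.116 for Srsf10, and 0.071 for Srsf11, against a median of 0.056 over all genes. It was 0.015 for Srsf2 and 0.016 for Srsf5.

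No SR gene passed an adjusted p of 0.05 for implied length by limma. The share of all genes that did was 0.0% for HP1a KO, 0.0% for HP1g KO, 0.0% for the difference of the effects and 0.0413% between the WT groups. At an unadjusted p under 0.05 there were 2 SR genes in HP1a KO, Srsf10 and Srsf1 (5.96% of all genes), and none in HP1g KO (6.53%), in the difference (6.79%) or between the WT groups (8.82%).

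For Srsf10, the implied length relative to the median gene was 0.574, 0.572, 0.562 and 0.583 in HP1a KO and 0.681, 0.741, 0.607 and 0.609 in HP1a WT. Every KO sample was shorter than every WT sample. Of 9679 genes, 133 were shorter and 175 longer in every KO sample than in every WT sample, 3.18% in either direction. For Srsf10 the KO samples were close together while the WT samples were not. The log2 difference was -0.20 (SE 0.063, unadjusted p = 0.0137, adjusted p = 0.801, limma). The fold change in counts was -0.19, and the TPM of Srsf10 in the same samples differed by 0.022.

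Between HP1g KO and WT the implied length of Srsf10 differed little. It was 0.667, 0.657, 0.620 and 0.599 in the KO and 0.718, 0.621, 0.629 and 0.622 in the WT samples, with a log2 difference of -0.03. Srsf1 was shorter in HP1a KO by -0.16 (SE 0.062, adjusted p = 0.801, limma), at 0.477 to 0.542 against 0.541 to 0.641 in the WT samples, which overlapped. HP1a WT replicate 2 had the longest implied length of all 16 samples for Srsf1, Srsf3 and Srsf10.

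Across the 16 samples, some of the SR genes varied together. Of the 45 pairs, 12 had a Pearson correlation of log2 CPM with an adjusted p under 0.05, 8 positive and 4 negative (permutation test with 100000 resamples, two-sided, Benjamini-Hochberg over the 45 pairs). Samples were shuffled across all groups, so that differences between groups enter these p-values. Fewer pairs passed by Spearman's rho. For Srsf7 and Srsf10, r was 0.751 (adjusted p = 0.00585) and rho 0.509 (adjusted p = 0.163), by permutation, and r was 0.420 after subtracting group means. The median r over all pairs was 0.02, with 24 of the 45 above 0.

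The closest pair was Srsf10 and Srsf11, with Pearson's r = 0.958 and Spearman's rho = 0.956 (n = 16, each with a permutation p of 1e-05, the smallest that 100000 resamples can give, and an adjusted p of 0.00045). The r was 0.876 without the 2 samples farthest from the median of Srsf10 and 0.893 after subtracting group means. Srsf1 and Srsf6 formed another pair, with r = 0.850 and rho = 0.879 (permutation p = 3e-05 and 2e-05, adjusted p = 0.000675 and 0.00045), 0.750 without 2 samples and 0.792 within groups. In each pair the genes lie on different chromosomes.

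Srsf9 ran against Srsf10 and Srsf11. Its r with Srsf11 was -0.828 and rho -0.688 (permutation p = 6e-05 and 0.00385, adjusted p = 0.0009 and 0.0298), with -0.713 without 2 samples and -0.641 within groups. Its r with Srsf10 was -0.800 and rho -0.729 (permutation p = 0.00021 and 0.00207, adjusted p = 0.00189 and 0.0233), with -0.650 and -0.696. Srsf3 correlated with Srsf11 at r = 0.794 and rho = 0.747 (permutation p = 0.00013 and 0.00124, adjusted p = 0.00146 and 0.0186), with 0.649 and 0.670.

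Implied lengths were linked more often, with 25 of 45 pairs at an adjusted p under 0.05 for Pearson's r, 15 positive and 10 negative. How often pairs of other genes reach this over the same samples was not tested, for implied length or for CPM. Srsf1 and Srsf3 had r = 0.820 and rho = 0.815 (permutation p = 0.00015 and 0.00025, adjusted p = 0.00315 and 0.00562), 0.706 without 2 samples and 0.747 within groups. Srsf9 and Srsf10 had r = -0.803 and rho = -0.694 (permutation p = 0.00019 and 0.00379, adjusted p = 0.00315 and 0.0171), -0.612 and -0.815. All values of a sample come from 1 library, and the part of library composition in these correlations was not tested.

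**Figure D5:**
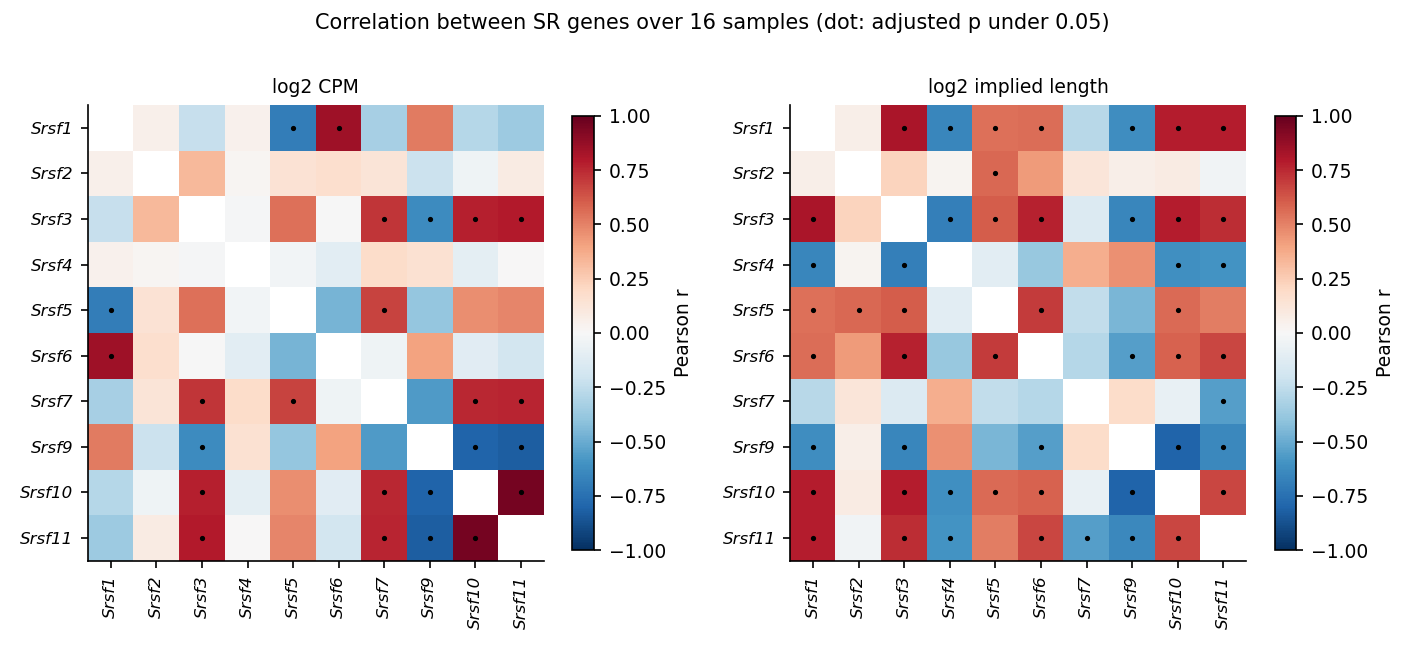
Pearson correlation of the SR genes over 16 samples, for log2 CPM (left) and log2 implied length (right), with a dot where the adjusted p was under 0.05. For CPM, Srsf10 and Srsf11 (0.958) and Srsf1 and Srsf6 (0.850) are the darkest red squares, and Srsf9 is blue against Srsf10 and Srsf11.

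Outside the family, the genes whose log2 CPM was most like the mean standardised level of the 10 SR genes, over 16 samples and 15776 genes, were Nop56, a core protein of small nucleolar RNPs (Pearson's r = 0.783), Ccnl1, a cyclin linked to splicing (0.783), Acacb, an acetyl-CoA carboxylase (0.765), Slc29a2, a nucleoside transporter (0.762), and Zzz3 (0.750). These are given as a description, with no test.

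Other genes of the pathway were read from lists. Their counts stand beside 0.0%, 0.327% and 12.8% of all genes at an adjusted p under 0.05 in HP1a KO, in HP1g KO and between the WT groups, and beside 4.27%, 11.9% and 29.9% at an unadjusted p under 0.05. Among the kinases that phosphorylate SR tails and the importer Tnpo3, 0 of 10 passed an adjusted p of 0.05 by edgeR in either KO comparison (1 and 2 at an unadjusted p under 0.05), and none by DESeq2 or by limma on TPM. The genes with the smallest p were Srpk3 (0.90) and Prpf4b (-0.16) in HP1a KO and Clk3 (0.15) and Clk1 (0.20) in HP1g KO, all as log2 fold changes. Srpk3 was barely detected, with 15 to 16 estimated counts per sample in HP1a KO and 5 to 11 in HP1a WT. Its fold change is uncertain for that reason (SE 0.364, adjusted p = 0.946, edgeR). In the WT comparison, 2 of 9 rose in the HP1a line by edgeR, beside 12.8% of all genes called in either direction. DESeq2 called 3 of 9, with Dyrk1a added, and limma on TPM called Srpk1 alone. The edgeR calls were Srpk1, the main cytoplasmic SR kinase, by 0.42 (SE 0.066, adjusted p = 0.00553, edgeR), and Clk2, a nuclear kinase, by 0.45 (SE 0.103, adjusted p = 0.0217, edgeR). Srpk1 passed under all 16 alternatives run. Clk2 did not without HP1a WT replicates 1, 2 or 4 or HP1g WT replicates 1 or 2, where its adjusted p was 0.0515 to 0.0721, nor by limma on log2(TPM + 1), where it was 0.0551.

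Among 20 SR-like and SR-related proteins, none passed in any comparison by edgeR (nor in the KO comparisons by DESeq2 or by limma on TPM), with 2, 2 and 4 at an unadjusted p under 0.05 in HP1a KO, HP1g KO and between the WT groups, beside 4.27%, 11.9% and 29.9% of all genes. Tra2b (-0.20) and Tra2a (-0.13), activators related to the SR proteins, had the smallest p in HP1a KO, and Luc7l2 (0.22) and Thrap3 (0.17) in HP1g KO. In the WT comparison these were Pnisr (0.30, adjusted p = 0.0625, edgeR) and Snrnp70 (0.36, adjusted p = 0.0712, edgeR), which DESeq2 placed at 0.0227 and 0.0240. For the difference of the KO effects, Luc7l2 was at -0.33 and Son at -0.21, among 5 at an unadjusted p under 0.05.

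Of 27 hnRNP proteins, which often oppose SR proteins, none passed in the KO comparisons by edgeR (3 and 2 at an unadjusted p under 0.05), by DESeq2 or by limma on TPM. Hnrnph1 and Ptbp2 had the smallest p in both. Hnrnph1 was at -0.17 in HP1a KO and 0.25 in HP1g KO, and Ptbp2 at -0.30 and 0.34. The difference of the effects on Hnrnph1 was -0.41 (SE 0.090, adjusted p = 0.156, edgeR), with an adjusted p of 0.00621 by DESeq2. Between the WT groups, Hnrnpc fell by 0.52 (SE 0.109, adjusted p = 0.0159, edgeR) in the HP1a line and Hnrnph3 rose by 0.35 (SE 0.104, adjusted p = 0.0485, edgeR), the 2 of 27 that passed, beside 12.8% of all genes. DESeq2 called 4 of 27, with Hnrnph2 and Syncrip added, and limma on TPM called Hnrnpc and Hnrnph2. The adjusted p of Hnrnpc was 0.05004 to 0.0599 without HP1a WT replicate 1 or HP1g WT replicates 1 or 2. That of Hnrnph3 was 0.0627 to 0.126 without any 1 of 7 samples, all but HP1g WT replicate 4, and it was 0.139 by limma on log2(TPM + 1) and 0.0516 without a filter on low counts.

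Of 17 factors of nonsense-mediated decay and the exon junction complex, none passed in the KO comparisons by edgeR (0 and 1 at an unadjusted p under 0.05), by DESeq2 or by limma on TPM, with Magohb (-0.46) and Upf3b (-0.17) in HP1a KO and Upf3a (-0.23) and Upf1 (0.13) in HP1g KO at the smallest p. Between the WT groups, Smg8, a regulator of the Smg1 kinase, fell by 0.50 (SE 0.108, adjusted p = 0.0175, edgeR) in the HP1a line, a call lost without HP1a WT replicate 1 or HP1g WT replicates 1 or 2 (adjusted p = 0.0522 to 0.0599). It was the only gene of this list called by edgeR and by limma on TPM. Of 8 export partners none passed in the KO comparisons (0 and 1 at an unadjusted p under 0.05), by DESeq2 or by limma on TPM, Thoc2 (-0.22) and Thoc1 (-0.16) having the smallest p in HP1a KO and Nxf1 (0.22), the mRNA export receptor, and Sarnp (-0.19) in HP1g KO. Ddx39b, an export helicase, rose by 0.34 (SE 0.063, adjusted p = 0.00998, edgeR) in the HP1a line between the WT groups and passed under all 16 alternatives run. It was 1 of 8 by edgeR and by limma on TPM, and DESeq2 called Thoc5 as well.

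In the difference of the KO effects, none of these lists had a gene past an adjusted p of 0.05 by edgeR, with 1 kinase, 5 SR-like, 4 hnRNP, 1 decay and 2 export genes at an unadjusted p under 0.05, beside 9.58% of all genes. By DESeq2 only Hnrnph1 passed, and by limma on TPM none. Clk1 (-0.34) and Prpf4b (-0.21), Ptbp2 (-0.64), Upf2 (-0.21) and Smg1 (-0.24), and Nxf1 (-0.25) and Thoc2 (-0.32) had the smallest p of their lists. SR transcripts respond to stress, and of 14 early response and heat shock genes none passed in the KO comparisons by edgeR (0 and 0 at an unadjusted p under 0.05), by DESeq2 or by limma on TPM. Hspa1a and Hspa1b rose between the WT groups by 2.28 and 2.48 in the HP1a line (adjusted p = 0.0364 and 0.0387, edgeR), calls lost without HP1a WT replicates 1 or 3 or any HP1g WT sample (adjusted p = 0.0501 to 0.106 for Hspa1a and 0.0528 to 0.110 for Hspa1b). With 16 samples in the fit the adjusted p was 0.115 for Hspa1a and 0.120 for Hspa1b, and by limma on log2(TPM + 1) it was 0.0727 for Hspa1b. DESeq2 called Egr2 as well. Hspa1b reached 317 TPM in HP1a KO replicate 3 and 115 TPM in HP1a WT replicate 3, against 4.29 to 29.4 TPM in the other samples. Neither cold-inducible gene, Cirbp or Rbm3, passed or reached an unadjusted p under 0.05 in any comparison by edgeR, and neither passed by DESeq2 or by limma on TPM.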

How the data were processed

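RNA-seq libraries of sorted splenic memory CD4+ T cells were analysed from 16 samples, 4 per group, grouped by the genotype in the labels. Nothing used here says that samples of a group came from separate sorts, so p-values measure the spread between these samples. A treatment field that names transferred cells did not match these memory cells and was not used. Per the submitters' processing notes and the paper's methods, the authors used STAR for alignment (GRCm39) and Salmon for quantification, and the deposited estimated counts per gene are not normalized. The deposited TPM values were made by the authors from the same quantification, scaled for transcript length to the same sum in every sample.

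Estimated counts were rounded to whole numbers. Genes were kept by filterByExpr (minimum count 10) and tested with the quasi-likelihood test of edgeR 4.0.16 in R 4.3.3 after TMM scaling, in the samples of the 2 groups compared (16 for the difference of the effects), with Benjamini-Hochberg adjustment over all genes tested. DESeq2 1.42.0 and limma 3.58.1 on log2(TPM + 1) were alternatives. A fold change on the latter scale understates that of low genes. Implied length was tested with limma in genes with at least 100 counts in every sample. The scripts were tested on simulated data. Near-identical sequence was found with blastn 2.17.0 (at least 150 bases and 98% identity). A count within 0.01 of an integer was taken as whole. Depth was 26694045 to 40199637 estimated counts per sample, and the lowest count of Srsf10 was 1997. Reads carried no stated molecular identifiers, so intervals cover the spread between samples and not amplification.

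The members and lists were chosen with earlier results of these data known. Named were all 10 SR genes, Cbx5 and Cbx3, and, in each other list and comparison, up to 4 genes with an adjusted p under 0.05 and the smallest p, or the 2 with the smallest p where none passed. The rule also took the 5 genes most like the mean standardised SR level and the gene pairs with the highest and lowest correlation. The further pairs, markers and lengths described were chosen after their values were seen. Alternatives were other normalization, filters, tools, samples in the fit, a replicate block and leaving out each sample. Some genes of the lists are not reported here.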

Additional observations from a re-analysis of the deposited data

Results flagged for a closer look

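In each group of 4 samples, the gap between the extreme sample and the nearest other was compared with the range of the group, for CPM and implied length of each SR gene. Of 80 groups, 7 had a sample that far from the others, where chance gives about 1 in 20, or 4. In CPM this was Srsf3 in HP1a KO replicate 3, at 345 CPM against 289 to 296 CPM in the other samples of its group. The other 6 were implied lengths, as a ratio to the median gene. Srsf3 was at 0.676 in HP1a WT replicate 2 (others 0.526 to 0.541), and Srsf5 in the same sample at 0.584 (others 0.567 to 0.569). Srsf5 was at 0.581 in HP1g KO replicate 3 (others 0.568 to 0.570), and Srsf9 at 0.468 in HP1g KO replicate 1 (others at 0.471). Srsf1 was at 0.521 in HP1g WT replicate 3 (others 0.601 to 0.612), and Srsf10 at 0.718 in HP1g WT replicate 1 (others 0.621 to 0.629).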

How the results depend on the processing

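No SR gene passed an adjusted p of 0.05 in either KO comparison or in the difference of the effects under any alternative run, and for each change given here the cause was not tested. The number of all genes called in HP1a KO was 0, and 8 by DESeq2, 1 without a filter, 1 by limma on log2(TPM + 1), 1 on log2(TPM + 0.1) and 0 to 3 with 1 sample left out. In HP1g KO it was 49, and 265 by DESeq2, 31 with at least 10 counts in every sample, 96 with 16 samples in the fit, 28 and 32 by limma on TPM and 30 to 49 with 1 sample left out. For the difference it was 8, and 78 by DESeq2, 14 without a filter, 4 on log2(TPM + 0.1) and 7 to 12 with 1 sample left out. Between the WT groups it was 1896, and 1175 and 1210 by limma on TPM and 573 to 2185 with 1 sample left out, and the SR genes called went from 1 to 0 by limma on either TPM scale and to 0 to 1 with 1 sample left out. For implied length, the genes called went from 0 to 5 without centring for the difference, and from 4 to 7 with at least 500 counts and to 0 without centring between the WT groups. With 1 sample left out they were 0 to 1 in HP1a KO and for the difference, 0 in HP1g KO and 1 to 4 between the WT groups. Without centring, the median of all genes was itself -0.20 in HP1g KO.

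The replicate numbers were shared across groups. Their correlations of deviations were 0.0847 to 0.355 in the HP1a line, 0.0497 to 0.170 in the HP1g line and -0.201 to -0.083 between the WT groups, so that they were not taken as pairs. Samples correlated best with their own number in 2 of 4, 1 of 4 and 0 of 4 cases. With a replicate block, the genes called were 0 in HP1a KO, 60 in HP1g KO, 13 for the difference and 577 between the WT groups (111 higher, 466 lower), where the SR genes called went from 1 to 0 and the implied lengths called from 4 to 0. There the block also ended the calls of Srsf1 (adjusted p = 0.0712), Hnrnpc (0.0650), Hnrnph3 (0.0949), Smg8 (0.0674), Hspa1a (0.101) and Hspa1b (0.134), by edgeR, and not those of Srpk1, Clk2 and Ddx39b.

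Of the log2 fold changes in gene counts given here that turned sign, those of Srsf10 (-0.19) and Thoc1 (-0.16) in HP1a KO were the largest. By limma on log2(TPM + 1) and log2(TPM + 0.1), HP1a KO gave 0.0385 and 0.0386 for Srsf3, 0.0028 and 0.0028 for Srsf5, 0.0224 and 0.0227 for Srsf10 and 0.0607 and 0.0623 for Thoc1, and the WT groups gave 0.0706 and 0.0708 for Srsf3 and 0.0485 and 0.0486 for Srsf11. In HP1g KO, the values without a filter were -0.0075 for Srsf2, -0.011 for Srsf5 and -0.0033 for Srsf6, and with 16 samples in the fit -0.0027 for Srsf2 and -0.0056 for Srsf5. Between the WT groups Srsf10 was at 0.0037 without a filter and 0.00021 with 16 samples. With 1 sample left out, the ranges that crossed 0 in HP1a KO were -0.0986 to 0.0066 for Srsf2, -0.0267 to 0.0431 for Srsf4, -0.0664 to 0.0014 for Srsf5 and -0.0854 to 0.0290 for Srsf9. In HP1g KO they were -0.0407 to 0.104 for Srsf1, -0.0596 to 0.0518 for Srsf2, -0.0339 to 0.0372 for Srsf5, -0.0243 to 0.0348 for Srsf6 and -0.0493 to 0.0251 for the implied length of Srsf10. For the difference they were -0.0931 to 0.0447 for Srsf2 and -0.0614 to 0.0118 for Srsf5, and between the WT groups -0.0227 to 0.0262 for Srsf3, -0.0461 to 0.0294 for Srsf7 and -0.0403 to 0.0240 for Srsf10.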
